A study of Homo sapiens with 11 samples.

Results

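The histone deacetylase HDAC2 and the histone-binding protein RBBP4 had peaks together, with no peak of CHD4 or MTA2, at 1661 of the 28995 sites made by merging overlapping peaks of the 4 proteins. These 1661 sites, called HDAC2/RBBP4 sites here, were chosen by merging peaks that share at least 1 bp and keeping sites with an HDAC2 and an RBBP4 peak and neither of the other two. They held 1678 HDAC2 peaks, 8.13% of the HDAC2 list, and 1739 RBBP4 peaks, 12.7% of the RBBP4 list. The peaks came from chromatin immunoprecipitation and sequencing (ChIP-seq) in the human cell line SK-N-MC, which was established from Ewing sarcoma, a tumour driven by the EWSR1::FLI1 fusion. The 11 samples were 1 each for HDAC2, RBBP4, CHD4 (pulled down with a Flag antibody), MTA2, FLI1, H3K4me3, H3K27ac, H3K4me1 and H3K27me3, and 2 input libraries with no peak list. All carried the genotype label wildtype, no treatment was named, and the origin of the CHD4 tag is not stated there. With 1 sample per target no value has a replicate error, intervals are 95% intervals for counting over sites or promoters, and the read depth is unknown.

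HDAC2 removes acetyl groups from histone tails and works mainly inside larger complexes. It works beside RBBP4, a protein that holds histones H3 and H4, in the nucleosome remodelling and deacetylase complex NuRD and in the SIN3 complex. CHD4, the NuRD remodelling ATPase, and MTA2, a NuRD scaffold, are not subunits of SIN3. RBBP4 also sits in Polycomb repressive complex 2, in the chromatin assembly factor CAF-1 and in MuvB, the core of the DREAM and MYBL2 complexes that bind promoters of cell division genes. No SIN3 or MuvB subunit was analysed here, so the sites are named by their peaks and not by a complex. An HDAC2 and an RBBP4 peak at the same site also do not show that both proteins sat on the same molecule of DNA, and more cells with a protein cannot be told apart from more protein per cell.

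The sites lay mostly at gene starts, and the gene list they covered most was that of mitotic genes, so promoters of 9 of those genes are shown first. Each line gives the 200 bases upstream of a RefSeq gene start, build GRCh38.p14, read 5′ to 3′ along the gene. Capitals mark TTTGAA, the cell cycle homology region that MuvB reads through its LIN54 subunit, and CCAAT, the box bound by NF-Y, each on either strand (TTCAAA and ATTGG are the same letters on the other strand). The first 4 had the highest HDAC2 fold enrichment among the mitotic genes with a site, and were CDK1 at chr10:60778131-60778330 on the plus strand, DLGAP5 at chr14:55191586-55191785 on the minus strand, AURKB at chr17:8210226-8210425 on the minus strand, NEK2 at chr1:211675622-211675821 on the minus strand. The other five are MKI67 at chr10:128126424-128126623 (minus), CCNB2 at chr15:59104946-59105145 (plus), HMMR at chr5:163460432-163460631 (plus), PLK1 at chr16:23678689-23678888 (plus), CDC25C at chr5:138331805-138332004 (minus). They were added, after their values were seen, to show how the 2 motifs lie just upstream of a start, and all of them hold TTTGAA there. The 9 promoters therefore do not give its share in the list. It is absent from this stretch at other mitotic genes with a site, such as KIF20A, CCNB1, PTTG1, CDC25B and BUB1.
CDK1: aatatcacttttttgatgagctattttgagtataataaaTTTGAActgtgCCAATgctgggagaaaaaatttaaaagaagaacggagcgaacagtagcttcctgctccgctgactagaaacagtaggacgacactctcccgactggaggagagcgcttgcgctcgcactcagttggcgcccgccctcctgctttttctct
DLGAP5: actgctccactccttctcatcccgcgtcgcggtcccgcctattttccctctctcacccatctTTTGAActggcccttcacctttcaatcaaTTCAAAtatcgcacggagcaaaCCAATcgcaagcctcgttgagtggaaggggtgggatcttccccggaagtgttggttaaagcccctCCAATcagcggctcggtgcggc
AURKB: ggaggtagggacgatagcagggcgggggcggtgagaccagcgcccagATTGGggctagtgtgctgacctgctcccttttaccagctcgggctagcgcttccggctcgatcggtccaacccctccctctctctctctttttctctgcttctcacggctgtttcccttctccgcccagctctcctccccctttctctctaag
NEK2: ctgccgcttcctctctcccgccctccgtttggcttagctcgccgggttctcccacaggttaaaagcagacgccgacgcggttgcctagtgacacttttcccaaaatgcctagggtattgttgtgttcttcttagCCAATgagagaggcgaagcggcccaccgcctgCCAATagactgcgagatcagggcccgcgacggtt
MKI67: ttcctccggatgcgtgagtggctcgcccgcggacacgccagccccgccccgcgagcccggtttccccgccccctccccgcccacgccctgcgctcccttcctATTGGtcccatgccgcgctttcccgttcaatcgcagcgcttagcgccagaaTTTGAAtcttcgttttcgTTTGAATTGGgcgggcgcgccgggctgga
CCNB2: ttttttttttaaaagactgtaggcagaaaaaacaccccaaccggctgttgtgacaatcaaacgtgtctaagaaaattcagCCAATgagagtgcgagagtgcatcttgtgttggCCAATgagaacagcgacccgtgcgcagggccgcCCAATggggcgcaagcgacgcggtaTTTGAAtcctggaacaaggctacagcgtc
HMMR: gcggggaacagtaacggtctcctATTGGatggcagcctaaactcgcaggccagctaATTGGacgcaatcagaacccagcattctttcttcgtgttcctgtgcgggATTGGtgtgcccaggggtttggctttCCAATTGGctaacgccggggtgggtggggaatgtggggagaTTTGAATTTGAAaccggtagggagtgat
PLK1: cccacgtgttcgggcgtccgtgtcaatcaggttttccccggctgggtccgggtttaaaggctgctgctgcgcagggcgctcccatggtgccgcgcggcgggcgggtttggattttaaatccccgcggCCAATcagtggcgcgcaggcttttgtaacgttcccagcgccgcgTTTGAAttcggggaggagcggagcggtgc
CDC25C: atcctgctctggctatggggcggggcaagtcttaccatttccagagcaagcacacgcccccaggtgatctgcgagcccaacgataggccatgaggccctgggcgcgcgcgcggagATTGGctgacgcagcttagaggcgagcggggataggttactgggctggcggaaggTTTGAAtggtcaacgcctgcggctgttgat

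CDK1, which encodes the kinase that drives entry into mitosis, has TTTGAA at position −161 and CCAAT just after it. CCNB2, encoding a cyclin partner of CDK1, and PLK1, encoding a mitotic kinase, have TTTGAA at position −29, and CDC25C, encoding a phosphatase that activates CDK1, has it at −30. AURKB and NEK2, both encoding mitotic kinases, have CCAAT and no TTTGAA in the stretch shown. A match of letters is a description of the promoter and not of binding.

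The peaks that chose the sites were of moderate height. HDAC2 fold enrichment, the authors' ratio of signal at the summit to the local background, had a median of 4.66 (quartiles 4.01 to 5.52, range 2.14 to 11.1), against 5.83 at sites with all 4 proteins and 5.08 over the whole HDAC2 list. RBBP4 fold enrichment had a median of 3.72 (quartiles 3.23 to 4.32, range 2.08 to 8.66), against 4.83 at sites with all 4 proteins and 4.26 over the RBBP4 list. These heights describe the choice of sites and support no comparison. There was 1 peak of each protein at 1572 sites and more at 89, and the median width was 540.0 bp, a value that depends on how many lists are merged into a site. HDAC2 and RBBP4 summits lay a median of 103.0 bp apart (quartiles 48.0 to 180.0 bp), and 68.1% were within 150 bp, against 71.0 bp and 77.3% where all 4 proteins had a peak.

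**Figure D1:**
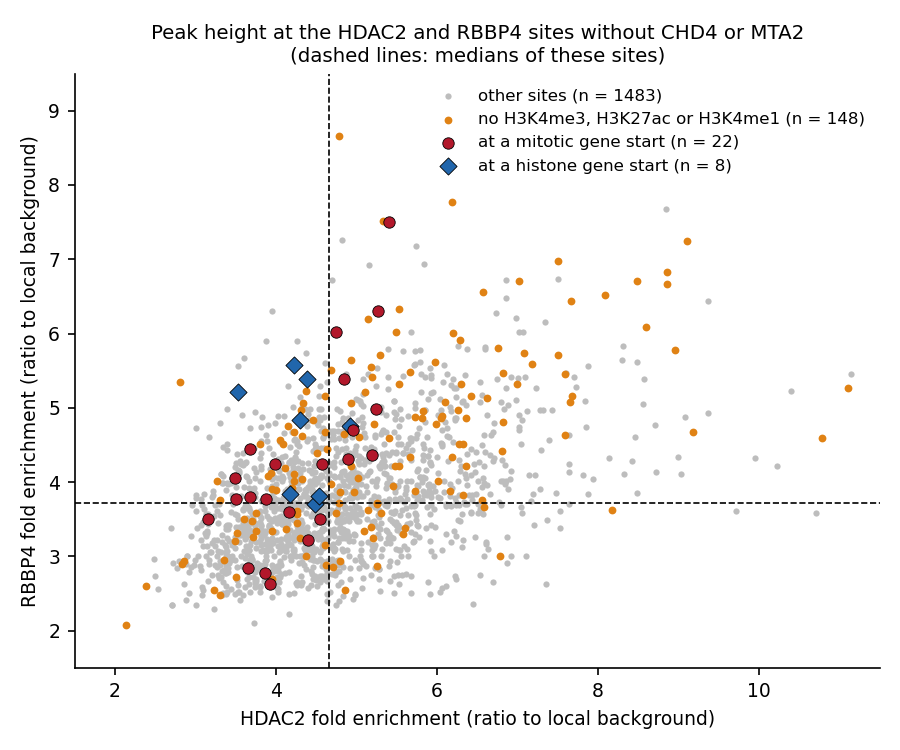
HDAC2 fold enrichment (horizontal axis) and RBBP4 fold enrichment (vertical axis) of each of the 1661 HDAC2/RBBP4 sites, with dashed lines at their medians of 4.66 and 3.72. Above the RBBP4 median lie 105 of the 148 sites with no H3K4me3, H3K27ac or H3K4me1 peak and 15 of the 22 sites at mitotic gene starts.

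Most HDAC2/RBBP4 sites carried H3K4me3, the mark of active and poised promoters, and few carried H3K4me1, the mark of enhancers. H3K4me3 overlapped 1443 of 1661 sites, 86.9% (85.2 to 88.4), against 41.6% of all merged sites. The share was 72.7% (70.2 to 75.1) at sites with HDAC2, MTA2 and RBBP4, 57.4% (56.2 to 58.5) at sites with HDAC2 only, 41.6% (39.1 to 44.1) at sites with RBBP4 only and 30.0% (28.7 to 31.3) where all 4 proteins had a peak. The HDAC2/RBBP4 sites were thus 56.9 percentage points (54.8 to 58.9) above the sites with all 4 proteins, 29.5 points (27.5 to 31.4) above HDAC2 only and 14.2 points (11.3 to 17.1) above the class that differs by an MTA2 peak. Each of these intervals lies above 0 and stayed so when the midpoint of the site had to lie inside the mark, with differences of 59.8, 28.8 and 17.6 points.

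H3K4me1 overlapped 61 HDAC2/RBBP4 sites, 3.67% (2.87 to 4.69), against 27.9% of all merged sites. The class with all 4 proteins stood at 53.4% (52.0 to 54.8), a difference of −49.8 points (−51.4 to −48.0), and the class with HDAC2, MTA2 and RBBP4 at 13.9% (12.1 to 16.0). RBBP4-only sites stood at 6.45% (5.31 to 7.80), a difference of −2.77 points (−4.35 to −1.25). Peaks of H3K4me1 flank gene starts, and the sites with all 4 proteins are wider. By midpoint the share was 1.20% at HDAC2/RBBP4 sites, against 9.31% at sites with all 4 proteins, 4.12% at sites with RBBP4 only and 2.44% at sites with HDAC2, MTA2 and RBBP4. The HDAC2/RBBP4 sites were below each of these classes by both counts, and which class lay nearest to them changed with the count.

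H3K27ac, the acetyl mark of active promoters and enhancers, stood at a similar share at HDAC2/RBBP4 sites and where all 4 proteins had a peak. It overlapped 1046 sites, 63.0% (60.6 to 65.3), against 62.8% (61.4 to 64.1) at sites with all 4 proteins and 45.2% of all merged sites. The difference from the sites with all 4 proteins was 0.212 points, with an interval of −2.49 to 2.88 that holds 0. By midpoint the share was 48.3% at HDAC2/RBBP4 sites, against 40.7% at sites with all 4 proteins, 7.59 points apart (4.82 to 10.4), so the comparison turns on how overlap is counted. Sites with HDAC2 only carried H3K27ac in 37.4% and sites with RBBP4 only in 26.7%, which is 25.6 points (23.0 to 28.2) and 36.3 points (33.0 to 39.4) below the HDAC2/RBBP4 sites. The HDAC2/RBBP4 sites were in turn lower than sites with HDAC2, MTA2 and RBBP4, which carried it in 67.6%, with a difference of −4.66 points (−8.11 to −1.18). By midpoint that difference was 2.22 points, with an interval that holds 0 (−1.43 to 5.86). The acetylated peaks themselves were shorter, at a median of 729.5 bp against 1146 bp where all 4 proteins had a peak, and had a median fold enrichment of 8.96 against 9.75.

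**Figure D2:**
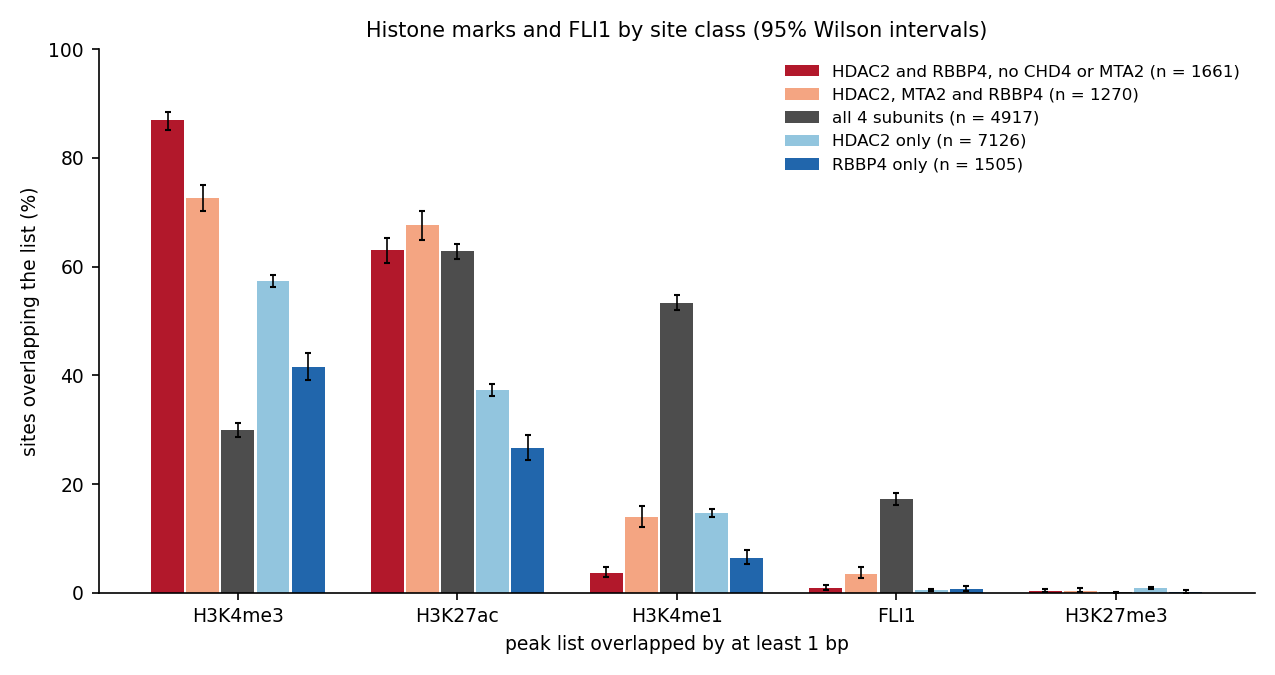
Share of sites (vertical axis, percent) that overlap a peak of each histone mark or of FLI1 by at least 1 bp, for 5 classes of site, with 95% Wilson intervals. The HDAC2/RBBP4 sites reach 86.9% for H3K4me3 and 3.67% for H3K4me1, and sites with all 4 subunits 30.0% and 53.4%.

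Most sites combined both promoter marks. H3K4me3 and H3K27ac without H3K4me1 were present at 1015 sites (61.1%), H3K4me3 alone of the 3 marks at 426 (25.6%), and none of the 3 at 148 (8.91%). The H3K4me3 peaks under HDAC2/RBBP4 sites had a median fold enrichment of 19.0 and a width of 1845 bp, close to the 17.1 and 1732 bp under sites with all 4 proteins. The centre of the site fell in the inner part of its H3K4me3 peak, the central 50%, in 67.3%, against 46.6% for sites with all 4 proteins and 63.1% for HDAC2 only. It was 59.7% for sites with HDAC2, MTA2 and RBBP4. The share was thus highest at HDAC2/RBBP4 sites, but it depends on the width of the mark, which was 1613 bp under HDAC2-only sites. Counted in bp, HDAC2-only sites lay nearer the centre of the H3K4me3 peak, at a median of 278.0 bp against 299.5 bp for HDAC2/RBBP4 sites.

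FLI1, whose DNA-binding part is also in the EWSR1::FLI1 fusion, was rare. It overlapped 15 HDAC2/RBBP4 sites, 0.903% (0.548 to 1.48), against 17.2% (16.2 to 18.3) of sites with all 4 proteins, 3.54% of sites with HDAC2, MTA2 and RBBP4, and 4.51% of all merged sites. The share at HDAC2-only sites was 0.463%, a difference of 0.440 points (0.0389 to 1.04). By midpoint the share at HDAC2/RBBP4 sites was 0.301%, and the difference from HDAC2-only sites was 0.0765 points with an interval that holds 0 (−0.146 to 0.487). The FLI1 peaks that did overlap were low, with a median fold enrichment of 5.08 against 8.46 where all 4 proteins had a peak. The site at the start of TRMT13, a tRNA methyltransferase gene, had a FLI1 peak of 4.35-fold, and the highest-ranked pair, 41.1 kb from MYL12BP2 and 100.5 kb from PPFIA2, had no H3K4me3, H3K27ac or H3K4me1 and FLI1 peaks of 5.93-fold and 6.02-fold.

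H3K27me3, the mark set by Polycomb repressive complex 2, overlapped 5 sites, 0.301% (0.129 to 0.703), against 0.379% of all merged sites, a share near the background. The enzyme complex that sets it contains RBBP4. The 5 sites included the starts of OSBPL6 and C3orf80, where H3K27me3 reached 3.41-fold and 3.70-fold beside H3K4me3 of 15.3-fold and 6.72-fold, and a site 1.13 kb from a start of MEGF11. The highest H3K27me3 ratio, 9.01-fold, was at a site 66.9 kb from MICU2 with none of the other marks.

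The next comparison placed the sites relative to gene starts. Of 1595 HDAC2/RBBP4 sites on chromosomes with annotated starts, 1123 lay within 1 kb of the start of a protein-coding gene, 70.4% (68.1 to 72.6), against 31.7% of all merged sites. The shares were 58.6% for HDAC2, MTA2 and RBBP4, 44.4% for HDAC2 only, 32.4% for RBBP4 only and 19.0% for all 4 proteins. The difference was 51.4 points (48.8 to 53.8) from the sites with all 4 proteins and 11.8 points (8.22 to 15.3) from the class with MTA2, both above 0. Counting starts of long non-coding RNA genes as well gave 74.6%. Sites with H3K4me3 and H3K27ac lay near a coding start in 80.8%, and sites with none of the 3 marks in 11.4%.

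Within that kilobase the proteins had different places. HDAC2 summits were a median of 57 bp downstream of the start (quartiles −126 to 162) and RBBP4 summits at −10 bp (quartiles −102 to 147), with negative positions upstream. Downstream of the start lay 62.9% of HDAC2 summits and 46.7% of RBBP4 summits. The fullest 100 bp bin held 25.6% of HDAC2 summits, just after the start, and 27.8% of RBBP4 summits, just before it, where HDAC2 dipped to 9.37%. At sites with all 4 proteins both medians were upstream, at −98 bp for HDAC2 and −91 bp for RBBP4, and HDAC2-only summits had a median of 84 bp downstream. Summits within 100 bp of the start made up 46.0% for RBBP4 at HDAC2/RBBP4 sites, against 41.4% at sites with HDAC2, MTA2 and RBBP4 and 31.1% where all 4 proteins had a peak. The class with HDAC2, MTA2 and RBBP4 had the same layout, with 27.9% of RBBP4 summits in the bin just before the start and 23.4% of HDAC2 summits in the bin just after it, and an HDAC2 dip to 8.43%. Its medians lay further upstream, at −6 bp for HDAC2 and −72 bp for RBBP4.

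**Figure D3:**
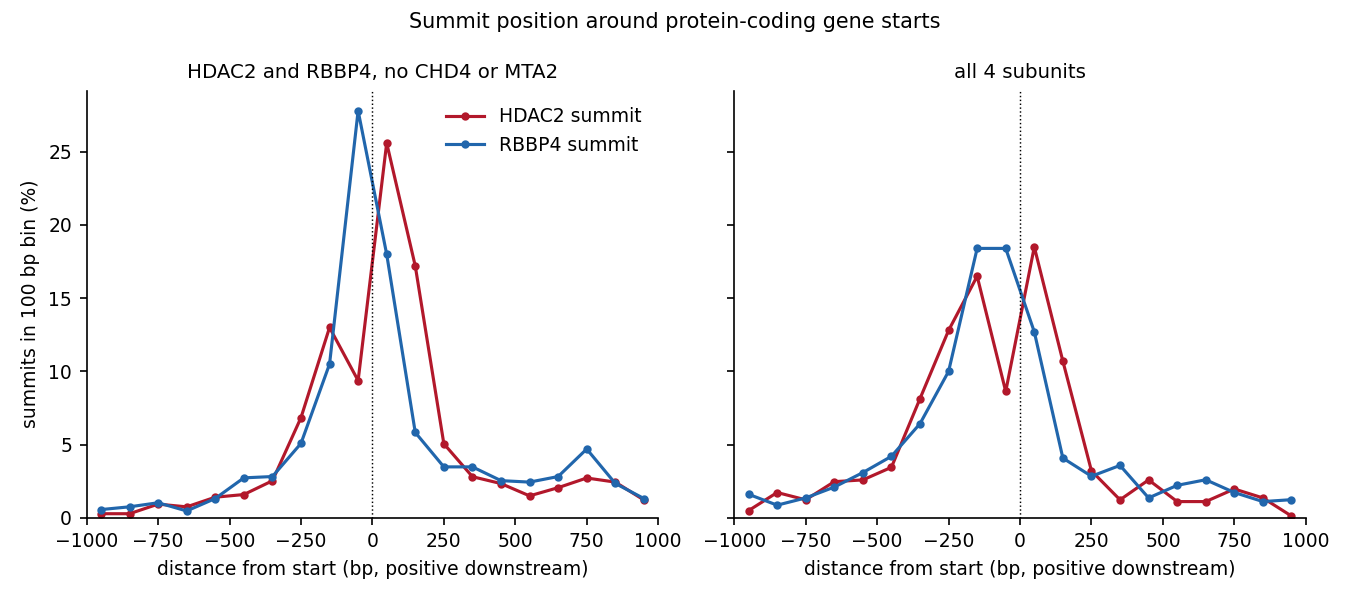
Share of HDAC2 and RBBP4 summits (vertical axis, percent of summits) in 100 bp bins around the nearest protein-coding gene start (horizontal axis, bp), for HDAC2/RBBP4 sites on the left and sites with all 4 subunits on the right. On the left RBBP4 peaks just upstream of the start at 27.8% and HDAC2 just downstream at 25.6%.

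A site lay within 1 kb of a start for 1275 of 15842 protein-coding genes, 8.05%, and for 1263 of the 9680 genes with H3K4me3 at the start, 13.0%. Lists of genes written from textbook knowledge were read against both shares, as counts and not as tests. Mitotic genes stood furthest above them. Of 43 with an annotated start, 22 had an HDAC2/RBBP4 site (51.2%), and all 43 had H3K4me3. The same starts had an RBBP4 peak of any kind in 39 cases (90.7%, against 23.9% of all genes and 38.3% of genes with H3K4me3) and an HDAC2 peak in 35 (81.4%, against 41.2% and 65.6%). CHD4 had a peak at 4 of the 43 (9.30%, against 11.0% of all genes and 17.1% of genes with H3K4me3) and MTA2 at 11 (25.6%, against 22.1% and 35.5%). Both were thus near the share over all genes and below the share over genes with H3K4me3. Peaks under a −log10 p of 15 were then left out of the 4 protein lists. By that cut 18 of the 43 mitotic genes had a site, among 482 of the 15842 genes. The cut also drops CHD4 and MTA2 peaks, so the 18 can include genes without a site before and are not what was kept of the 22. RBBP4 at PLK4, CENPA, CCNB2, KIF14 and NUSAP1, for example, had a −log10 p of 12.6, 13.9, 14.2, 10.3 and 10.0.

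Of the 22 mitotic genes with a site, CDK1 had the highest pair of values, with HDAC2 at 5.40-fold and RBBP4 at 7.51-fold, and the nearest CHD4 or MTA2 peak lay 393.6 kb away. DLGAP5, which encodes a spindle microtubule protein, had HDAC2 at 5.27-fold and RBBP4 at 6.30-fold. AURKB, encoding the Aurora B kinase, had 5.24-fold and 4.99-fold, and NEK2, encoding a centrosome kinase, 5.19-fold and 4.37-fold. RBBP4 had the higher ratio at CDK1 and DLGAP5 and HDAC2 at AURKB and NEK2, on scales that belong to each list. A CHD4 or MTA2 peak lay 88.8 kb from the DLGAP5 site, 9.92 kb from AURKB and 40.1 kb from NEK2.

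Among the rest, picked out after their values were seen, MKI67, which encodes the proliferation marker Ki-67, had HDAC2 at 4.74-fold and RBBP4 at 6.02-fold. ASPM, a spindle pole gene, had 4.84-fold and 5.39-fold, and PLK1 had 3.67-fold and 4.45-fold. The B-type cyclin genes CCNB1 and CCNB2 had HDAC2 at 3.88-fold and 4.16-fold and RBBP4 at 3.78-fold and 3.60-fold. BUB1, a spindle checkpoint kinase gene, was lowest for HDAC2 at 3.15-fold and KIF14, a kinesin gene, lowest for RBBP4 at 2.63-fold. The median RBBP4 ratio over the 22 sites was 4.15, against 3.72 over all HDAC2/RBBP4 sites, and the median HDAC2 ratio was 4.28 against 4.66. H3K27ac overlapped 16 of the 22 sites. The mitotic sites were therefore not the tallest HDAC2 peaks, and most stood above the middle of the sites for RBBP4.

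**Figure D4:**
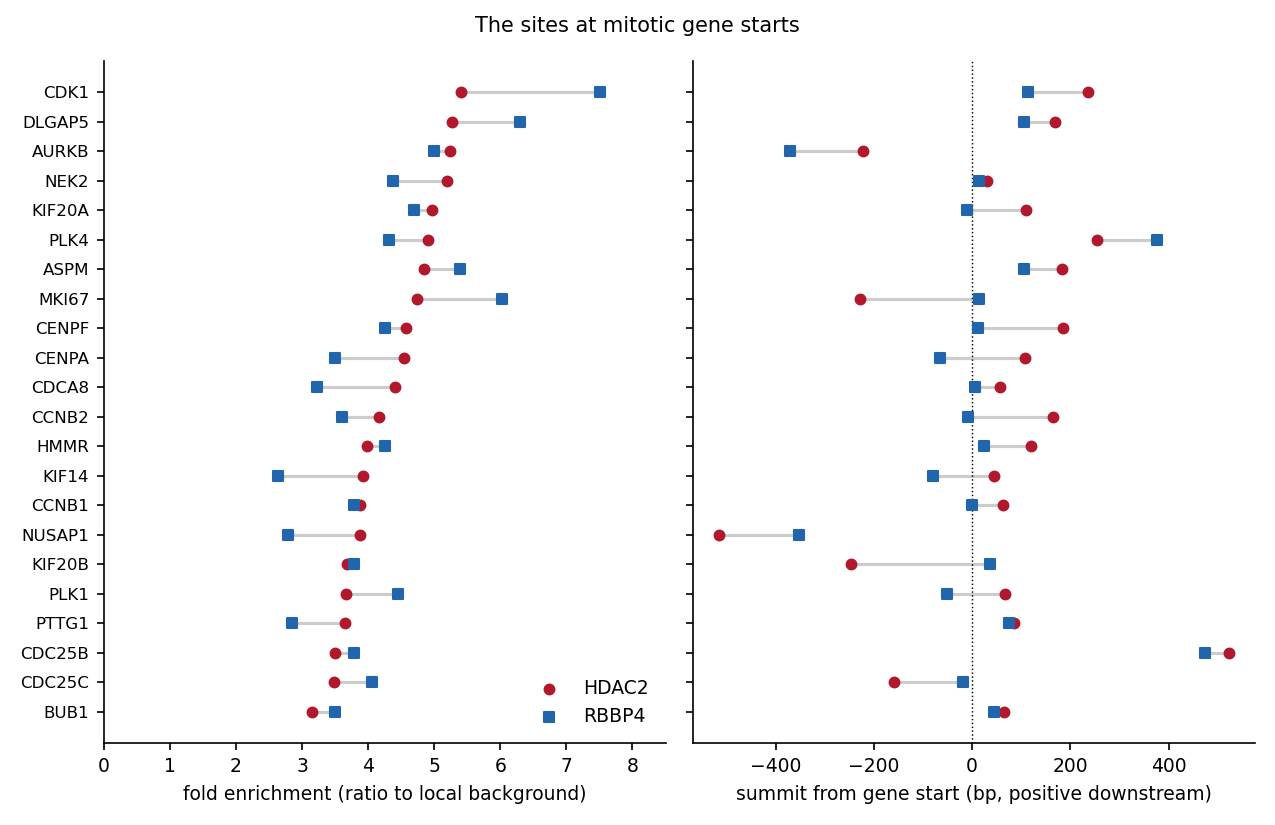
The 22 mitotic genes with an HDAC2/RBBP4 site, ordered by HDAC2 fold enrichment, with HDAC2 (circles) and RBBP4 (squares) fold enrichment on the left and the summit position relative to the gene start in bp on the right. RBBP4 runs from 2.63-fold at KIF14 to 7.51-fold at CDK1, and most RBBP4 summits lie close to the start.

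Other kinds of site were also found at the mitotic starts. RBBP4 with no HDAC2 peak was found at 6 of the 43 starts, among them CDC20, an activator of the anaphase-promoting complex, and CENPE, a kinetochore kinesin gene, named after their values were seen. Of all 43 starts, 6 had a site with HDAC2, MTA2 and RBBP4 and 2 had a site with all 4 proteins. Over all genes these shares were 5.16% and 5.90%, and over genes with H3K4me3 at the start 8.44% and 9.35%. No RBBP4 peak was found at 4 starts, those of TOP2A, MYBL2, CKS2 and SPC24. At 27 of the 43 starts RBBP4 was present and CHD4 and MTA2 absent within 1 kb. Neither this count nor that of RBBP4 without HDAC2 was made over all genes, so neither is read as particular to mitotic genes.

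**Figure D5:**
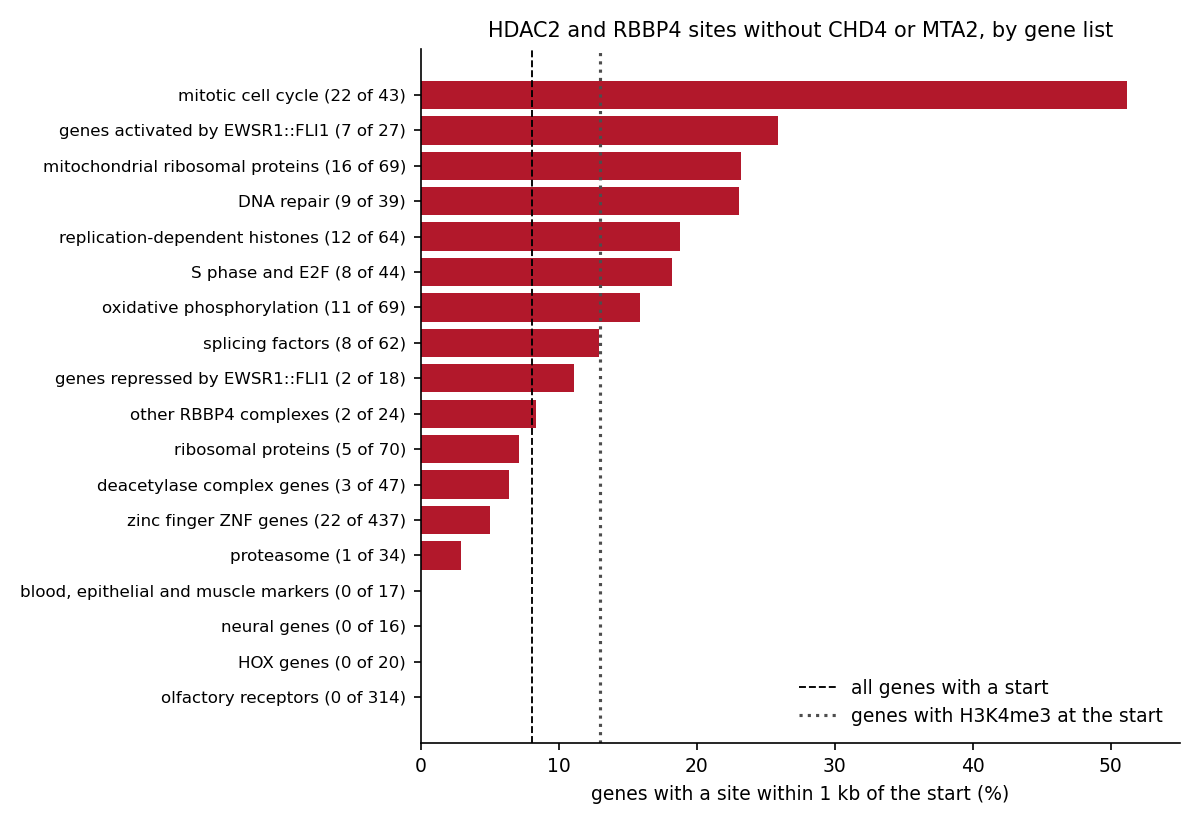
Share of genes with an HDAC2/RBBP4 site within 1 kb of the start (horizontal axis, percent) for 18 gene lists, with the counts beside each name. The dashed line is the share over all genes with a start, 8.05%, and the dotted line the share over genes with H3K4me3 there, 13.0%, and the mitotic list reaches 51.2%.

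Other lists tied to division stood above the share over all genes by less. DNA repair genes had a site at 9 of 39 starts (23.1%), with CHEK1, a checkpoint kinase gene, highest for HDAC2 at 4.96-fold and RBBP4 at 4.04-fold, followed by MRE11, XRCC2 and FANCA. Genes of S phase and the E2F pathway had a site at 8 of 44 (18.2%), with DNMT1, the maintenance DNA methyltransferase gene, at 5.38-fold and 3.34-fold and GINS1, a replicative helicase subunit gene, at 5.36-fold and 4.67-fold. PRIM1, a DNA primase gene, and RFC3, a clamp loader gene, had HDAC2 at 5.20-fold and 4.71-fold. At these S phase starts RBBP4 was present in 23 of 44 (52.3%) and MTA2 in 18 (40.9%), against 90.7% and 25.6% at the mitotic starts.

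Replication-dependent histone genes, transcribed in S phase without polyadenylation, had a site at 12 of 64 starts (18.8%) and at 12 of the 37 with H3K4me3 (32.4%). These genes lie in clusters, and the 12 starts were served by 8 sites. RBBP4 peaks were at 24 of the 64 (37.5%, against 23.9% of all genes) and were the only peak of the 4 proteins in a site at 19. CHD4 was at none and MTA2 at 1. The highest by HDAC2 were H2AC25 and H2BC26, which share a site with HDAC2 at 4.92-fold and RBBP4 at 4.75-fold, H4C12 with 4.53-fold and 3.82-fold, and H2AC7 with 4.49-fold and 3.70-fold. Histone genes are near-identical copies, and the labels do not say how reads that match several copies were placed, so single histone genes are uncertain.

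Housekeeping lists fell on both sides of the background. Mitochondrial ribosomal protein genes had a site at 16 of 69 starts (23.2%), led by MRPL51 with HDAC2 at 7.32-fold and RBBP4 at 4.97-fold, MRPL57 with 7.04-fold and 4.51-fold, MRPL48 and MRPL1. Oxidative phosphorylation genes had one at 11 of 69 (15.9%), led by NDUFB3, encoding a complex I subunit, and ATP5F1E, encoding an ATP synthase subunit, with RBBP4 at 2.74-fold and 4.33-fold. Splicing factor genes stood at 8 of 62 (12.9%), cytosolic ribosomal protein genes at 5 of 70 (7.14%) and proteasome genes at 1 of 34 (2.94%), although 65 of the 70 ribosomal and 30 of the 34 proteasome starts had H3K4me3. Among genes with H3K4me3 at the start the splicing share was 13.6%, near the 13.0% of all such genes. HNRNPK led the splicing genes, RPS29 the ribosomal ones and PSMC2 was the proteasome gene. A site counts for every gene with a start within 1 kb of it. By their centres the sites of MRPL51 and MRPL57 lay nearest the starts of NCAPD2 and SKA3. Those of HNRNPK and RPS29 lay nearest the starts of RMI1 and LRR1.

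Zinc finger genes of the ZNF family had a site at 22 of 437 starts (5.03%), below the 8.05% of all genes, and 342 of these starts had H3K4me3. ZNF319 had HDAC2 at 5.89-fold and RBBP4 at 3.96-fold. No site was found at 314 olfactory receptor, 20 HOX, 16 neural or 17 blood, epithelial and muscle gene starts. H3K4me3 was at 1 of the olfactory receptor, 12 of the HOX and 5 of the neural starts. Against 8.05% of all genes, the HOX, neural and tissue lists are too short to set an absence of sites apart from the background. The HOX starts did carry the 4 proteins, with CHD4 at 8 and RBBP4 at 9 of the 20, while the blood, epithelial and muscle markers had none of the 4 and no H3K4me3.

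Genes of the deacetylase complexes were covered at a share near that of all genes and below that of genes with H3K4me3. Of the 45 with H3K4me3 at the start, 6.67% had a site, against 13.0% of all genes with the mark there. Of 47 starts, 3 had a site (6.38%, against 8.05% of all genes): OGT, encoding the O-GlcNAc transferase, with HDAC2 at 6.24-fold and RBBP4 at 4.86-fold, SAP30L, encoding a SIN3 subunit, with 4.35-fold and 3.12-fold, and HDAC2 itself with 4.13-fold and 3.14-fold. Genes of other complexes that contain RBBP4 had 2 of 24 (8.33%, also near the 8.05%), the Polycomb methyltransferase gene EZH2 with 4.82-fold and 4.44-fold and the histone acetyltransferase gene HAT1 with 4.92-fold and 2.84-fold. Of the 23 with H3K4me3, 8.70% had a site, also under the 13.0%, though both lists hold few genes with a site.

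Genes activated by EWSR1::FLI1 had a site at 7 of 27 starts (25.9%), and at 7 of the 22 with H3K4me3 (31.8%). They were RBM11, SOX6, AURKB, NKX2-2, NR0B1, EZH2 and E2F3, of which AURKB, EZH2 and E2F3 were also on the cell cycle or RBBP4 lists. A CHD4 or MTA2 peak lay 0.704 kb from the RBM11 site, 1.05 kb from EZH2, 1.80 kb from E2F3 and 1.97 kb from NR0B1. The distance was 5.61 kb at NKX2-2, 9.92 kb at AURKB and 130.9 kb at SOX6, against a median of 30.3 kb over all HDAC2/RBBP4 sites. NKX2-2 and NR0B1 are transcription regulators that Ewing sarcoma cells need for growth, and their sites had HDAC2 at 5.02-fold and 4.88-fold and RBBP4 at 4.28-fold and 5.45-fold. CHD4 peaks were at 14 of the 27 starts (51.9%, against 11.0% of all genes) and MTA2 peaks at 13 (48.1%, against 22.1%). A site with all 4 proteins was at 10 of the 27, against 5.90% of all genes. Genes repressed by the fusion had an HDAC2/RBBP4 site at 2 of 18 (11.1%, against 8.05% of all genes), COL5A1 and SPARC, which encode matrix proteins. Among the 15 with H3K4me3 the share was 13.3%, near the 13.0% of all such genes. The COL5A1 and SPARC sites lay 0.743 kb and 1.42 kb from a CHD4 or MTA2 peak. In the other counts the repressed list was like the activated one, with CHD4 at 9 of 18 (50.0%), MTA2 at 9 (50.0%) and a site with all 4 proteins at 7.

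The promoters themselves were described from sequence. Starts with an HDAC2/RBBP4 site, 1608 in all, had a second start on the opposite strand within 1 kb in 35.6% (33.3 to 38.0), against 23.1% (21.7 to 24.6) of starts with H3K4me3 and no site, 21.2% (19.0 to 23.6) of starts with all 4 proteins and 18.5% of all starts. Starts with HDAC2, MTA2 and RBBP4 reached 36.2%. The C plus G content had a median of 64.3%, the same as at starts with H3K4me3 and no site. It was 67.3% where all 4 proteins had a peak and 68.7% at starts with HDAC2, MTA2 and RBBP4. The share of paired starts was thus above that of marked starts without a site, at an equal C plus G median. It was near that of the class with MTA2, whose C plus G median was higher.

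Of 13 short motifs searched on both strands in the 250 bases before and 50 after each start, E2F and the cell cycle homology region were the only ones whose difference from starts with H3K4me3 and no site had an interval without 0. The E2F letters (TTTGGCG or TTTCCCG or TTTGCCG or TTTCGCG) were in 16.9% of starts with an HDAC2/RBBP4 site, against 12.8% of starts with H3K4me3 and no site and 10.4% of all promoters, a difference of 4.02 points (1.9 to 6.23) from the first of these. Starts with HDAC2, MTA2 and RBBP4 had the E2F letters in 15.5%, and the difference of 1.34 points from these had an interval that holds 0 (−1.57 to 4.16). TTTGAA was in 12%, against 9.45% and 12.4%, a difference of 2.55 points (0.716 to 4.49) from the first of these. It was in 7.42% of starts with HDAC2, MTA2 and RBBP4, a difference of 4.58 points (2.28 to 6.80). Those starts had a higher C plus G median, 68.7% against 64.3%, and the part of this in the difference was not tested. The ETS letters CCGGAAG, which also hold the core read by FLI1, were in 22.2%, against 21.4% at starts with H3K4me3 and no site (0.831 points, −1.61 to 3.34), 10.5% at starts with all 4 proteins (11.7 points, 9.02 to 14.4) and 12.8% of all promoters. For the other 10 motifs too the interval of the difference from marked starts without a site held 0. They were the GC box GGGCGG (in 56.3% of all promoters), CCAAT (34.7%), the TATA box TATAAA (9.47%), the E-box CACGTG (8.34%), the NRF1 core GCATGCG (4.63%) and the YY1 core AGATGGC (5.79%). The remaining ones were the ZNF143 core ACTACAA (2.84%), the cyclic AMP response motif ACGTCA (8.94%), CTCGCGA (3.08%) and GGAAGGA (11.9%). The last is GGAA followed by GGA, short of a full GGAA pair, and can share letters with ETS.

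In the mitotic list the motifs of the printed promoters were spread differently. CCAAT was in a promoter of all 22 genes with an HDAC2/RBBP4 site and of 13 of the 21 without one. Counted the same way, in any promoter of a gene, it was found for 42.1% of all genes and 44.2% of genes with H3K4me3. TTTGAA was in 15 of the 22 and 15 of the 21, against 15.9% of all genes and 13.5% of genes with H3K4me3, and so stood at a similar count with and without a site. These counts include the bases after the start. At PLK4, CENPF, KIF14, NUSAP1 and KIF20B TTTGAA was found there and not in the 200 bases before the start. Over all starts with H3K4me3, a site was present at 15.9% (12.9 to 19.5) of those with TTTGAA and CCAAT, 17.5% (14.8 to 20.6) with TTTGAA alone, 12.4% (11.4 to 13.4) with CCAAT alone and 11.9% (11.2 to 12.7) with neither.

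The 218 HDAC2/RBBP4 sites without H3K4me3 (13.1%) had higher ratios and a lower −log10 p. Their HDAC2 ratio had a median of 5.21 and their RBBP4 ratio 4.28, against 4.60 and 3.67 at the 1443 sites with H3K4me3. Their median −log10 p was 19.0 for HDAC2 and 12.2 for RBBP4 against 21.7 and 12.5, and they were narrower, at 380.0 bp against 579.0 bp. The 5 of highest mean rank had none of the 3 marks and lay far from coding starts. Their HDAC2 ratios were between 8.08-fold and 9.11-fold and their RBBP4 ratios between 6.52-fold and 7.25-fold. The highest, at chr10:58995104-58995518, was 181.9 kb from PHYHIPL, and its HDAC2 and RBBP4 summits were 3 bp apart.

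By the same mean rank 12 sites led all HDAC2/RBBP4 sites, and only 3 of them carried H3K4me3. The highest of all, downstream of the start of CCNG2, an unconventional cyclin gene, had HDAC2 at 8.84-fold, RBBP4 at 7.68-fold and H3K27ac at 14.8-fold, and a CHD4 or MTA2 peak 134 bp away. CUL4A, encoding a ubiquitin ligase scaffold, had 9.37-fold and 6.44-fold with such a peak 387 bp away. The third, with H3K4me3 at 23.6-fold, was 62.7 kb from CDR2. The start of EOMES, a T-box developmental regulator, had 8.96-fold and 5.78-fold and none of the 3 marks.

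How firmly CHD4 and MTA2 were missing varied. The nearest CHD4 or MTA2 peak was a median of 30.3 kb from an HDAC2/RBBP4 site, and 230 sites (13.8%) had one within 1 kb. Just inside the rule, the sites at UBE4B and ISCA1 had such a peak 1 bp away and the site at AHR 7 bp away. Just outside it, sites at PTCH1, MTMR10 and MLPH fell out through an MTA2 peak with a −log10 p of 9.09, and sites at CIRSR, ANO5 and HAUS4 through a CHD4 peak with the same value. At the low end of RBBP4, the sites at PDGFA and SCARF2 passed with a −log10 p of 7.01 and that at BLOC1S6 with 7.02. At the low end of HDAC2, a site 207.5 kb from C1orf87 passed with 9.48 and the sites at NFU1 and RNF4 with 9.53 and 9.71. The RBBP4 list reached down to 7.01, while the CHD4 and MTA2 lists stopped at 9 and 9.08, so weaker CHD4 or MTA2 binding at any of these sites would not be seen. At 25 sites (1.51%) a number was also missing from the running numbers of the MTA2 list, for a reason the labels do not state. With peaks under a −log10 p of 15 left out of the 4 protein lists, 678 sites met the rule, and H3K4me1 overlapped 8.26% of them.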

How the data were processed

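ChIP-seq peak lists of SK-N-MC cells were used, 1 for each of 9 targets, and the 2 input libraries were not analysed here. The submitters' processing notes name the build GRCh38 and, in no stated role, BWA 0.7.17, SAMtools 1.9, bedtools 2.27.1, deepTools 3.2.1, Trimmomatic 0.36 and FastQC 0.11.7. The deposited peak names carry MACS2, and no source here gives its version, control library or pooling. Fold enrichment (a ratio) and −log10 p are the authors' values and were used within a list only.

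Peaks of the 4 subunits sharing at least 1 bp were merged with Python 3.11.15, numpy 2.4.6 and pandas 2.3.3, and tested on simulated data, where 2000 of 2000 sites were recovered. Shares have Wilson 95% intervals and differences Newcombe 95% intervals. They cover counting over sites only, and neighbouring sites and promoters are not independent. Gene starts, strands and sequences came from the RefSeq promoter table (GRCh38.p14, 250 bases before to 50 after a start), which gave 22198 starts of 15842 of 20052 protein-coding genes. Chromosome 8 has no starts there.

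The members, 18 gene lists and 13 motifs were chosen with earlier results of these data known. Genes named were the 12 sites of highest mean rank of both ratios, up to 4 genes per list by HDAC2 ratio, all deacetylase complex genes, the 5 highest sites without H3K4me3, up to 5 overlapping FLI1 or H3K27me3, and those nearest each threshold. Any gene outside this rule was named after its values were seen, the HDAC2/RBBP4 genes of the fusion-activated list included.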

Additional observations from a re-analysis of the deposited data

How the results depend on the processing

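No paired analysis was possible because each target had 1 sample. Over 96 recomputed values, 64 stayed within the interval of the reported value or within 1.5 times a reported count, and 32 moved. The number of mitotic genes with a site, a count picked for this after seeing the data, was 17 to 23 under 9 settings. The last of these, either annotated end of a gene in place of the start, was itself added after seeing the data. It gave the 23 mitotic genes, 70.9% of sites and 1442 genes. These counts are out of 50 mitotic and 20052 protein-coding genes, where the reported ones are out of 43 and 15842.

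When the 4 protein lists were cut at a −log10 p of 15, 678 sites met the rule, at 482 genes, 18 of them mitotic. The shares were 78.9% for H3K4me3, 60.0% for H3K27ac, 8.26% for H3K4me1, 0 for H3K27me3 and 64.8% near a start. The median ratios were 5.01 for HDAC2 and 4.51 for RBBP4. This setting also drops CHD4 and MTA2 peaks, so sites can enter as well as leave. At 9 the RBBP4 median was 3.81. With no CHD4 or MTA2 peak within 1 kb, H3K27ac was at 60.2%. With summits within 150 bp, the distance was 66.0 bp, 844 genes and 67.4% of sites were near a start, the HDAC2 median was 4.56, and H3K4me3, H3K27ac and H3K4me1 stood at 82.2%, 57.9% and 4.95%.

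With the midpoint inside the mark, the shares were 83.1% for H3K4me3, 48.3% for H3K27ac, 1.20% for H3K4me1, 0.120% for H3K27me3 and 0.301% for FLI1. With at least 50% of the site covered, they were 84.8%, 48.3%, 1.26%, 0.120% and 0.241%. With marks of −log10 p of at least 15, H3K4me1 was 2.65% and FLI1 0.0602%. Within 250 bp of a start lay 59.4% of sites and within 2500 bp 73.7%. Where the setting does not itself change the sites counted, the cause was not tested. Depth is unknown, so a site without a CHD4 or MTA2 peak may hold binding below the reach of those lists.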

Other observations

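The number of HDAC2/RBBP4 sites for every 100 H3K4me3 peaks differed between chromosomes. Chromosome 21 had 14.9 sites for every 100 H3K4me3 peaks, with 24 sites. Chromosome 6 had 14.3, with 136 sites, and chromosome 2 had 14.2, with 150 sites. Chromosome 19, rich in zinc finger genes, had 3.49, with 39 sites, and chromosome 16 had 5.07, with 34 sites. Set against 100 merged sites, chromosomes 21, 6 and 2 had 5.84, 6.17 and 6.50, and chromosomes 19 and 16 had 3.88 and 3.77. Chromosome 11 was highest by this measure, at 7.59.

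Outside the assembled chromosomes 3 sites were found, and 2 of them lay on the mitochondrial sequence, where histones are not present. The starts of NKX2-2, NR0B1 and CAV1 carried H3K4me3 and H3K27ac, and those of PTPRC, a blood cell gene, and KRT5, a keratinocyte gene, carried neither. The start of CD99, a surface marker of Ewing sarcoma, also had no peak of any mark or of FLI1. RefSeq places that gene on both X and Y, and the labels do not say where reads matching both went. The part of this in the missing peaks was not tested.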
